A study of Homo sapiens with 9 samples.

Results

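The transcripts of 52 genes that act in the G2 phase and in mitosis were followed in the colon adenocarcinoma line HT-29 under 5-aza-deoxycytidine (5-Aza), an analog of cytidine that is built into DNA and traps the enzymes that methylate it. The genes were listed by name, but with earlier results of these data known, so the list is not independent of the data. All 52 had a probe set among the 19752 genes represented on the array. Cultures received 0 µM 5-Aza (the DMSO vehicle alone), 5 µM or 10 µM for 5 days, with 3 biological replicates per dose, and the RNA of each culture was hybridised to an Affymetrix U133 Plus 2.0 array. All 9 cultures were of the same line and medium, and the sources used here name no sorting or synchronisation. The values are log2 signals in arbitrary units, so a difference of 1 is a 2-fold change, and the level of one gene cannot be set against that of another. Of 10 colon epithelium markers, 8 (EPCAM, CDH1 and KRT20 among them) lay above the median of the array on all 9 arrays, while the intestinal factors CDX1 and CDX2 did so on none. Of 10 markers of blood, endothelial, stromal and liver cells, 3 (CD14, PECAM1 and COL1A1) lay above it on all arrays and 4 (PTPRC, VWF, COL3A1 and ALB) on none.

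Entry into mitosis is driven by CDK1 bound to cyclin A or cyclin B, which the CDC25 phosphatases activate. Aurora and Polo-like kinases then build the spindle, the checkpoint proteins hold anaphase until every kinetochore is attached, and the anaphase-promoting complex ends mitosis by marking securin and cyclin B for destruction. Most of these genes are transcribed late in the cell cycle, under the MuvB complex with B-MYB and the factor FOXM1, and are silent in resting cells, so their RNA level in a culture is often read as a sign of how many cells are in G2 or mitosis. In a bulk culture, fewer cells in these phases and less RNA per cell cannot be told apart.

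A gene was tested when its signal reached the median of the array, used as the detection floor, on all 3 arrays of at least 1 dose, and 48 of the 52 genes were. Rises and falls are those at an adjusted p of no more than 0.05 in limma, with the Benjamini-Hochberg adjustment made over all 11749 tested genes. The largest contrast was between both treated doses. At 10 µM against 5 µM, 36 of the 48 tested genes fell (75.0%, against 8.93% of all tested genes) and 0 rose (against 6.94%). At an unadjusted p of at most 0.05, limma put 42 of them lower and 0 higher, and the methods' t-test put 19 lower and 0 higher after adjustment. The shares of all tested genes under these rules are not given, so these counts cannot be set against them. The median change was -1.04, a 2.06-fold decrease, while the median over all tested genes was -0.01. In 23 of them the fall exceeded 2-fold, which was so for 2.09% of all tested genes. All 3 arrays at 10 µM lay below all 3 arrays at 5 µM for 44 of the 48, against 18.6% of all tested genes, and above them for 0, against 17.3%. By sign alone 47 were lower and 1 was not, where 51.0% of all tested genes were lower and 49.0% higher.

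At 5 µM against 0 µM the mitotic genes moved the other way and less. Of the 48, 15 rose (31.2%, against 20.2% of all tested genes) and 0 fell (against 13.3%), with a median of 0.37 against 0.04 over all tested genes. With all arrays shifted to equal medians, 5 rose (10.4%, against 11.5% of all tested genes) and 1 fell (against 26.8%), with a median of 0.11, so the share that rose then did not exceed that of all tested genes. Under quantile normalization 9 rose (18.8%, against 17.4% of all tested genes) and 0 fell (against 13.6%), with a median of 0.27. The share that rose was then close to that of all tested genes. Limma on the values as deposited put 22 higher and 0 lower at an unadjusted p of at most 0.05, and the methods' t-test put 7 higher and 0 lower after adjustment. Here too the shares of all tested genes under these rules are not given. A rise of more than 2-fold was seen in CDK1 and KIF23 (against 8.60% of all tested genes), and 0 fell by more than 2-fold (against 1.32%). The 5 µM arrays lay above all vehicle arrays for 21 genes and below them for 2 (against 31.0% and 25.4% of all tested genes), and by sign alone 39 were higher and 9 lower (against 54.1% and 45.9%). At 10 µM against 0 µM, 22 fell (45.8%, against 13.3% of all tested genes), and CDC25B was the 1 gene that rose (against 19.8%). The median was then -0.55, against 0.05 over all tested genes, and 16 fell by more than 2-fold (33.3%, against 1.50%). The 10 µM arrays lay below all vehicle arrays for 22 genes and above them for 3 (against 19.0% and 25.5%), and by sign alone 41 were lower and 7 higher (against 46.0% and 54.0%). With equal array medians 28 of the 48 fell (58.3%, against 26.7% of all tested genes) and 0 rose (against 9.32%), and CDC25B did not pass. The 3 comparisons share their arrays in pairs and are not independent of each other.

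**Figure D1:**
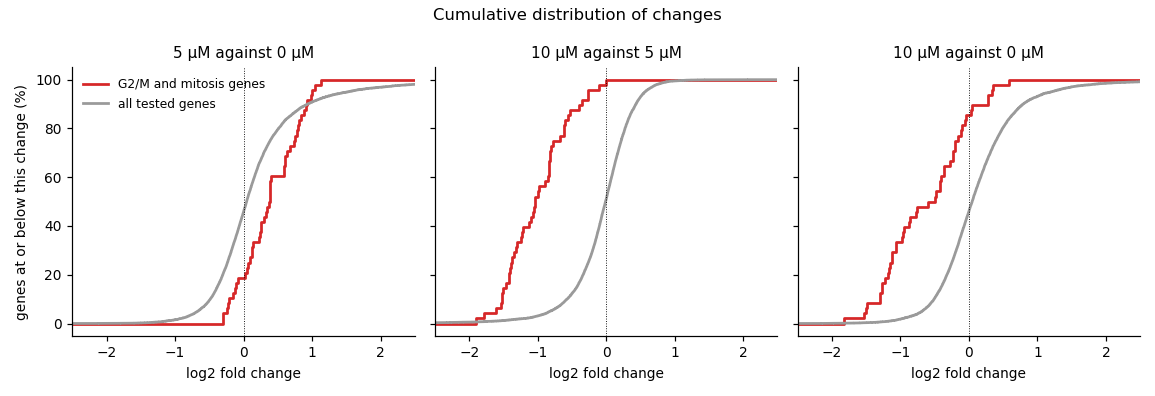
Cumulative share of genes (y axis, percent) at or below each log2 fold change (x axis) in the 3 comparisons, for the 48 tested G2/M and mitosis genes (red) and all 11749 tested genes (grey). The red curve lies right of the grey one over most of its course at 5 µM against 0 µM and left of it at 10 µM against 5 µM, where 47 of 48 values are below 0.

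An RNA measure moved with dose in the same arrays. The actin control probe sets compare the 3' and 5' ends of 1 transcript, and their 3' minus 5' signal (log2) averaged 2.09 ± 0.19 at 0 µM, 2.59 ± 0.0975 at 5 µM and 2.98 ± 0.17 at 10 µM (SD, n = 3 each), without overlap between doses (exact permutation test over 1680 arrangements, two-sided p = 0.00357, the smallest possible, and adjusted p = 0.00714 over 4 control measures). GAPDH gave 0.192 ± 0.0638, 0.318 ± 0.0165 and 0.572 ± 0.11 in the same order of dose. The 18S rRNA 3' control took another course, lowest at 5 µM, with 13.34 ± 0.20, 12.83 ± 0.11 and 13.55 ± 0.12 (same test, adjusted p = 0.0143). The 18S rRNA 5' control did not pass (12.25 ± 0.21, 12.35 ± 0.19 and 12.94 ± 1.02, adjusted p = 0.339). Whether the 18S signals bear on the mitotic genes was not tested. With the actin value as a covariate in limma, 0 of the 48 genes were called at 10 µM against 5 µM, where 12 of all 11749 tested genes fell and 0 rose, and 47 of the 48 stayed negative, with a median of -0.70. At 10 µM against 0 µM 0 of the 48 were called, as were 0 of all tested genes, so that this fit could not single out any gene there. At an unadjusted p of at most 0.05 that fit put 23 and 6 past the test, and the methods' t-test, run without the covariate, called 19 and 5 genes lower. No shares of all tested genes are given beside these counts. The median standard error grew to 0.30 and 0.56 in these comparisons, against 0.19 without the covariate. At 10 µM against 0 µM the median of the mitotic genes turned to 0.08. At 5 µM against 0 µM it was 0.69, with 6 genes called higher, beside 594 higher and 137 lower of all tested genes. Since the covariate separates the doses completely, its part in these changes cannot be told apart from that of the dose.

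Since most of these genes fell together, their promoter sequences were read. RefSeq gave a window of 250 bases before to 50 bases after the start site for 45 of the 52. Cell cycle genes of this class carry the cell cycle genes homology region (CHR), which binds the MuvB complex, and CCAAT boxes, which bind NF-Y. The CHR core was searched as TTTGAA or TTCGAA and the box as CCAAT, each on both strands, and motifs that share bases, a core and a box or a pair of boxes, were each counted. A CHR core was found in 33 of 45 windows (73.3%, against 16.6% of 27305 promoters of all genes and 13.5% of 15842 protein-coding ones). CCAAT was found in 36 (80.0%, against 35.7% of all promoters), both motifs in 29 (64.4%, against 6.58%), and 2 or more CCAAT in 22 (48.9%, against 11.3%). In 21 windows a CHR core began between -50 and 10 from the start site. The windows below are those of HMMR, which fell most at 10 µM against 5 µM, CCNB2, which fell most at 10 µM against 0 µM, CDK1, which rose most at 5 µM against 0 µM, and ECT2, which passed the test in no comparison and was chosen after its values were seen. They are given 5′ to 3′ on the gene's strand (RefSeq, GRCh38.p14, all on the + strand: HMMR chr5:163460382-163460681, CCNB2 chr15:59104896-59105195, CDK1 chr10:60778081-60778380, ECT2 chr3:172750476-172750775), with CHR cores and CCAAT (or its complement ATTGG) in capitals.
HMMR: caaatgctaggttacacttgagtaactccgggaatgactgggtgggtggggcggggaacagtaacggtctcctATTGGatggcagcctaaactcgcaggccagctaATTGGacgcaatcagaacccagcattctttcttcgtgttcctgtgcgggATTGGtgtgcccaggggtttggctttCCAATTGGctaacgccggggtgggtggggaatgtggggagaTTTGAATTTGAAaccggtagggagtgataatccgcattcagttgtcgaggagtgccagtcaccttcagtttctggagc
CCNB2: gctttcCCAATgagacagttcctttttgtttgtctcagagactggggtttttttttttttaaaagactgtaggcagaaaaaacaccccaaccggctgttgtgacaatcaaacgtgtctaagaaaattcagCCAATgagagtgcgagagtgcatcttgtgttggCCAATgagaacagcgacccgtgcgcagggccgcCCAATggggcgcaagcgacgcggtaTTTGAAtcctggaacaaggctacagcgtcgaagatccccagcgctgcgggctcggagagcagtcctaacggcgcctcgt
CDK1: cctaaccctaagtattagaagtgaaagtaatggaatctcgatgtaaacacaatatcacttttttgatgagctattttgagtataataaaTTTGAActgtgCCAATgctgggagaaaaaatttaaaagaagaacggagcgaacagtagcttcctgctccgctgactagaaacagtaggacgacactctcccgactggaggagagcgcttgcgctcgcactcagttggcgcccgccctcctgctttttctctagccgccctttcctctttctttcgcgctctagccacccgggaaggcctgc
ECT2: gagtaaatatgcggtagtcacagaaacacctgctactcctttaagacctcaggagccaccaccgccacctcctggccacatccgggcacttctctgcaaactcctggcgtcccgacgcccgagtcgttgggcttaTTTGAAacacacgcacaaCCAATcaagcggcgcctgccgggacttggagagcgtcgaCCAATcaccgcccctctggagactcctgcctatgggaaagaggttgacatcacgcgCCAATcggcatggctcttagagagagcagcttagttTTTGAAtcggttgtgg

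The HMMR window holds 2 CHR cores in tandem and 5 CCAAT boxes, of which 2 on opposite strands overlap in the palindrome CCAATTGG, that of CCNB2 has 1 core and 4 boxes, that of CDK1 has 1 of each, and that of ECT2 has 2 cores and 3 boxes. A window with both motifs was thus seen in the gene that fell most and in a gene that did not pass. The 29 tested genes with a CHR core had a median of -1.05 at 10 µM against 5 µM, and 23 of them fell. The 12 without a core had a median of -0.94, and 8 fell. The order was the other way at 10 µM against 0 µM, with a median of -0.49 and 12 of 29 lower in genes with a core, and of -0.86 and 6 of 12 lower in those without. The windows also had a median of 26 CpG sites, against 14 over all promoters and 22 over protein-coding ones, and 44 of 45 (97.8%, against 48.9% and 65.7%) had a ratio of observed to expected CpG above 0.6, the usual mark of a CpG island.

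**Figure D2:**
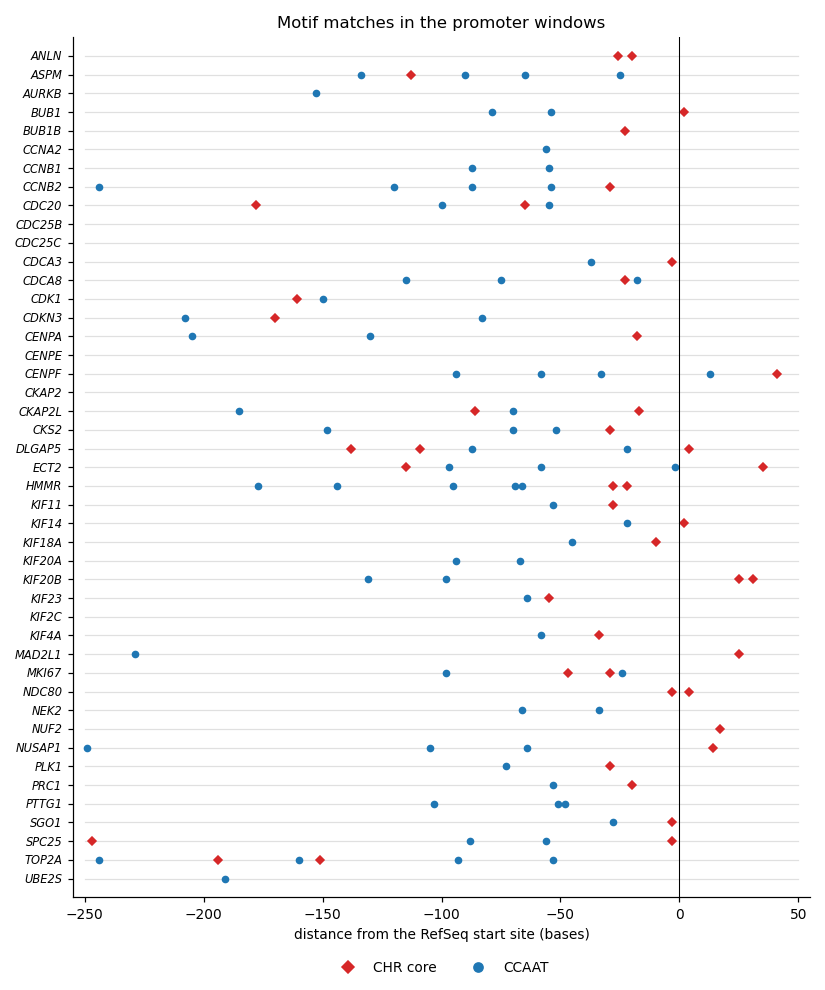
Position of each CHR core (red diamonds) and CCAAT box (blue circles) relative to the RefSeq start site (x axis, bases) in the promoter windows of 45 G2/M and mitosis genes (rows). Cores cluster close to the start site and CCAAT boxes mostly lie upstream, and 33 windows hold a core.

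Among the cyclins, CDK1 and its activators, 6 of 8 fell at 10 µM against 5 µM, 4 rose at 5 µM against 0 µM and 3 fell at 10 µM against 0 µM. Of all tested genes 8.93%, 20.2% and 13.3% did so, in the same order. The counts by role below are to be read beside these shares, and those of falls over 2-fold beside 2.09% at 10 µM against 5 µM and 1.50% at 10 µM against 0 µM. CCNB1, the cyclin B that brings CDK1 into mitosis, gave 9.48, 9.15 and 8.99 at 0 µM, 9.53, 9.55 and 9.75 at 5 µM, and 8.08, 8.53 and 8.08 at 10 µM. The 10 µM arrays thus lay below all others, and CCNB1 fell by 1.38 ± 0.17 (SE) against 5 µM (2.60-fold, adjusted p = 0.00318) and by 0.98 ± 0.17 against 0 µM (adjusted p = 0.00358). CCNB2, the second cyclin B, gave 10.11, 10.10 and 9.70 at 0 µM, 9.51, 9.62 and 9.89 at 5 µM, and 7.92, 8.46 and 8.09 at 10 µM. It was lowest at 10 µM on every array, and its fall of 1.82 ± 0.18 against 0 µM (3.53-fold, adjusted p = 0.000316) was the largest of the 48 genes in that comparison. CDKN3, a phosphatase of CDKs, had 7.70, 7.63 and 7.48 at 0 µM, 8.31, 8.40 and 8.63 at 5 µM, and 6.14, 7.12 and 6.72 at 10 µM. No dose overlapped another for CDKN3, which rose by 0.84 ± 0.22 at 5 µM against 0 µM (adjusted p = 0.0186) and fell by 1.78 ± 0.22 at 10 µM against 5 µM (3.45-fold, adjusted p = 0.00333).

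CDK1 itself had a different course. Its signals were 7.72, 7.87 and 7.24 at 0 µM, 8.79, 8.77 and 8.66 at 5 µM, and 7.97, 8.0 and 7.91 at 10 µM. It rose 2.19-fold at 5 µM against 0 µM (1.13 ± 0.15, adjusted p = 0.000887) and fell 1.72-fold at 10 µM against 5 µM (-0.78 ± 0.15, adjusted p = 0.0144), so that the 10 µM arrays lay just above all vehicle arrays (0.35 ± 0.15, adjusted p = 0.113). CDC25B, a phosphatase that starts CDK1 activation, had 8.95, 9.01 and 9.18 at 0 µM, 9.97, 9.95 and 10.01 at 5 µM, and 9.82, 9.45 and 9.61 at 10 µM. Both treated doses lay above the vehicle, with differences of 0.93 ± 0.12 for 5 µM (adjusted p = 0.000536) and 0.58 ± 0.12 for 10 µM (adjusted p = 0.00676). CCNA2, the cyclin A of S and G2 phase, fell by 0.53 ± 0.14 at 10 µM against 5 µM (adjusted p = 0.0352). At 5 µM against 0 µM it did not pass (0.33 ± 0.14, adjusted p = 0.0949). Its other tested probe set changed by -1.18 ± 0.19 and 0.72 ± 0.19 in these comparisons (limma adjusted p = 0.0109 and 0.0265 over probe sets). CDC25C, the later acting phosphatase, entered the test through its 5 µM arrays alone, where it read 6.76, 6.57 and 6.47. It gave 6.26, 6.12 and 4.43 at 0 µM and 5.19, 5.41 and 4.93 at 10 µM. Entry through that dose favours a higher value there, and its change of -1.42 ± 0.42 at 10 µM against 5 µM was not called. It is still counted among the genes without overlap and those negative by sign in that comparison.

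**Figure D3:**
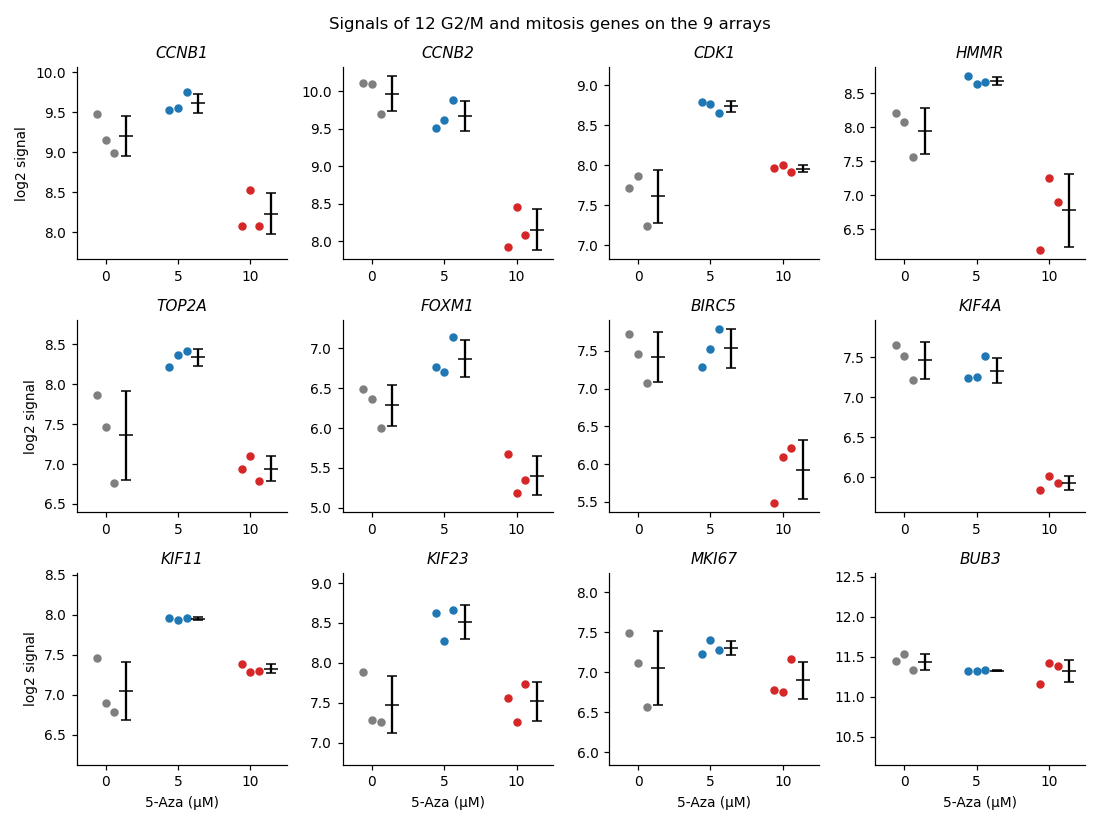
Log2 signal (y axis) on each of the 9 arrays by 5-Aza dose (x axis, µM) for 12 G2/M and mitosis genes, with the mean and SD of each dose beside its points (n = 3). CCNB2, BIRC5 and KIF4A are low at 10 µM alone, CDK1 and KIF11 are highest at 5 µM, and BUB3 hardly differs between doses.

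Of the 6 tested mitotic kinases and partners, 5 fell at 10 µM against 5 µM (4 of them over 2-fold) and the same number against 0 µM, while the changes at 5 µM against 0 µM lay between -0.15 and 0.34 and did not pass. BIRC5, or survivin, a subunit of the chromosomal passenger complex, gave 7.72, 7.46 and 7.07 at 0 µM, 7.28, 7.53 and 7.79 at 5 µM, and 5.48, 6.09 and 6.21 at 10 µM. The 0 and 5 µM arrays overlapped, and all 10 µM arrays lay below them, with 1 of them under the floor. BIRC5 fell by 1.61 ± 0.24 against 5 µM (3.05-fold, adjusted p = 0.00546) and fell by 1.49 ± 0.24 against 0 µM (2.81-fold, adjusted p = 0.00253). NEK2, a centrosome kinase, and TPX2, the spindle factor that activates Aurora A, each fell by 1.53 ± 0.23 at 10 µM against 5 µM (2.88-fold and 2.89-fold). CDCA8 (borealin), also of the passenger complex, fell by 1.35 ± 0.29 (adjusted p = 0.0194). AURKA, the centrosomal Aurora kinase, had 9.66, 9.26 and 9.37 at 0 µM, 9.66, 9.60 and 9.68 at 5 µM, and 8.58, 9.11 and 8.80 at 10 µM. All 10 µM arrays lay below the others, and AURKA fell by 0.82 ± 0.15 at 10 µM against 5 µM (adjusted p = 0.0121), and its other tested probe set had a change of -1.0 ± 0.15. AURKB was near the floor, passed only through the vehicle arrays and spread from 2.54 to 5.62 at 10 µM (-0.81 ± 0.66 against 5 µM, adjusted p = 0.43). PLK1, the Polo-like kinase of mitotic entry, was not tested, because 1 of its 9 signals (5.21, at 0 µM) reached the floor.

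The spindle checkpoint was mixed, with 2 of 5 genes lower at 10 µM against 5 µM and 1 at 10 µM against 0 µM. Of all tested genes 8.93% and 13.3% were, and 5 genes are too few to set against these shares. BUB1, the kinase that recruits checkpoint proteins to kinetochores, had 7.44, 6.72 and 6.85 at 0 µM, 7.15, 7.08 and 7.06 at 5 µM, and 5.77, 6.20 and 5.69 at 10 µM, and fell by 1.21 ± 0.20 at 10 µM against 5 µM (2.32-fold, adjusted p = 0.00776) and fell by 1.12 ± 0.20 against 0 µM (adjusted p = 0.00423). BUB1B, named here after its value was seen, fell by 0.60 ± 0.16 at 10 µM against 5 µM (adjusted p = 0.039). MAD2L1, the checkpoint protein that binds CDC20, changed by -0.67 ± 0.22 in that comparison (adjusted p = 0.074). BUB3, which BUB1 and BUB1B bind and which cells also use outside mitosis, was nearly level, with 11.45, 11.53 and 11.33 at 0 µM, 11.32, 11.32 and 11.33 at 5 µM, and 11.16, 11.42 and 11.39 at 10 µM (0.00 ± 0.10 at 10 µM against 5 µM, adjusted p = 0.996). It was the 1 gene of the 48 without a negative value in that comparison.

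Of the 5 tested centromere and kinetochore genes, 4 fell at 10 µM against 5 µM, all over 2-fold and within a narrow range, the 5 changes lying between -1.12 and -1.05. The changes at 5 µM against 0 µM lay between -0.24 and 0.61 and did not pass. CENPF, a large protein of the outer kinetochore, gave 8.54, 8.25 and 8.08 at 0 µM, 8.06, 8.03 and 8.04 at 5 µM, and 7.22, 7.02 and 6.74 at 10 µM. Its fall was 1.05 ± 0.15 against 5 µM (adjusted p = 0.0053) and 1.29 ± 0.15 against 0 µM (2.45-fold, adjusted p = 0.000664). CENPA, the histone H3 variant that marks centromeres, fell by 1.12 ± 0.18 against 5 µM and by 1.06 ± 0.18 against 0 µM (adjusted p = 0.00727 and 0.00343). NDC80 and NUF2, partners in the complex that grips microtubules, fell by 1.10 ± 0.21 and 1.06 ± 0.15 against 5 µM (adjusted p = 0.0129 and 0.00487), and NUF2 also fell against 0 µM (-0.76 ± 0.15). SPC25, of the same complex, and SGO1, which guards cohesin, each reached the floor on 1 array and were not tested.

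Of the 8 kinesin motors, 6 fell at 10 µM against 5 µM, 4 rose at 5 µM against 0 µM and 3 fell at 10 µM against 0 µM (against 8.93%, 20.2% and 13.3% of all tested genes). KIF4A, the chromokinesin of the central spindle, had 7.66, 7.51 and 7.21 at 0 µM, 7.24, 7.25 and 7.51 at 5 µM, and 5.84, 6.01 and 5.92 at 10 µM. It fell by 1.41 ± 0.14 against 5 µM (2.65-fold, adjusted p = 0.00145) and by 1.54 ± 0.14 against 0 µM (2.90-fold, adjusted p = 0.00022), and its change at 5 µM against 0 µM did not pass (-0.13 ± 0.14, adjusted p = 0.505). KIF11, the motor that separates the spindle poles, had 7.46, 6.89 and 6.78 at 0 µM, 7.96, 7.93 and 7.96 at 5 µM, and 7.39, 7.29 and 7.30 at 10 µM. Here the 5 µM arrays stood above the rest (0.91 ± 0.16 against 0 µM, adjusted p = 0.00362), and the 10 µM arrays fell within the range of the vehicle. KIF23, a motor of the midzone in cytokinesis, had 7.89, 7.28 and 7.26 at 0 µM, 8.62, 8.27 and 8.66 at 5 µM, and 7.56, 7.26 and 7.74 at 10 µM. It rose 2.06-fold at 5 µM against 0 µM (adjusted p = 0.00518) and fell 1.99-fold at 10 µM against 5 µM (adjusted p = 0.0161), and differed from the vehicle by 0.05 ± 0.20 at 10 µM (adjusted p = 0.877). KIF2C, which depolymerises microtubules at centromeres, followed the same order, with changes of 0.88 ± 0.27 and -1.25 ± 0.27. KIF18A and KIF20A fell against 0 µM (-1.16 ± 0.25 and -1.06 ± 0.23), and of these KIF20A alone also fell against 5 µM.

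The spindle and cytokinesis proteins held the largest change, and 7 of 8 fell at 10 µM against 5 µM, 3 rose at 5 µM against 0 µM and 3 fell at 10 µM against 0 µM. HMMR, a spindle assembly protein and hyaluronan receptor, gave 8.21, 8.07 and 7.56 at 0 µM, 8.75, 8.63 and 8.66 at 5 µM, and 6.19, 7.25 and 6.90 at 10 µM. Its doses did not overlap, and it fell by 1.90 ± 0.26 at 10 µM against 5 µM (3.73-fold, adjusted p = 0.00478) and by 1.17 ± 0.26 against 0 µM (2.25-fold, adjusted p = 0.0111), while its change of 0.73 ± 0.26 at 5 µM against 0 µM did not pass (adjusted p = 0.0618). DLGAP5, which bundles microtubules at kinetochores, had 7.14, 6.94 and 6.62 at 0 µM, 6.75, 6.87 and 6.86 at 5 µM, and 4.86, 5.66 and 5.70 at 10 µM, and fell by 1.42 ± 0.23 against 5 µM (2.68-fold, adjusted p = 0.0069), with 1 of the 10 µM arrays under the floor. ASPM, a spindle pole protein, fell by 1.51 ± 0.20 in the same comparison (2.84-fold, adjusted p = 0.00414). NUSAP1, PRC1 and ANLN, which act on microtubules, the midzone and the contractile ring, rose at 5 µM against 0 µM by 0.81 ± 0.26, 0.78 ± 0.16 and 0.68 ± 0.18, and fell at 10 µM against 5 µM by 1.31 ± 0.26, 0.83 ± 0.16 and 1.04 ± 0.18. None of these 3 passed at 10 µM against 0 µM. CKAP2L, a spindle protein that was not tested, lay below the floor on all arrays at 0 and 10 µM and above it on 2 of 3 at 5 µM (6.16 and 5.72, with 5.38 on the third), and was named after its values were seen.

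Of the 5 genes of the exit from mitosis, 4 fell at 10 µM against 5 µM, 2 rose at 5 µM against 0 µM and 2 fell at 10 µM against 0 µM. CDC20, the activator of the anaphase-promoting complex, had 7.44, 7.23 and 7.0 at 0 µM, 7.96, 8.02 and 8.10 at 5 µM, and 7.05, 7.44 and 6.91 at 10 µM. It rose by 0.80 ± 0.16 at 5 µM against 0 µM (adjusted p = 0.0057) and fell by 0.89 ± 0.16 at 10 µM against 5 µM (adjusted p = 0.01). UBE2C, the ubiquitin-conjugating enzyme of the complex, did the same (0.75 ± 0.19 and -0.98 ± 0.19). PTTG1, or securin, the inhibitor of separase that the complex destroys, had 9.57, 9.26 and 8.82 at 0 µM, 9.11, 9.29 and 9.30 at 5 µM, and 7.75, 8.14 and 7.86 at 10 µM. The vehicle and 5 µM arrays overlapped (0.02 ± 0.19), and PTTG1 fell by 1.32 ± 0.19 at 10 µM against 5 µM (2.49-fold, adjusted p = 0.00526) and by 1.30 ± 0.19 against 0 µM (adjusted p = 0.00176).

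TOP2A, the topoisomerase that untangles chromosomes, had 7.86, 7.46 and 6.76 at 0 µM, 8.22, 8.37 and 8.42 at 5 µM, and 6.94, 7.10 and 6.79 at 10 µM. It rose by 0.98 ± 0.24 at 5 µM against 0 µM (adjusted p = 0.0147) and fell by 1.39 ± 0.24 at 10 µM against 5 µM (2.63-fold, adjusted p = 0.0091). FOXM1, the transcription factor of late cell cycle genes, had 6.49, 6.36 and 6.0 at 0 µM, 6.77, 6.70 and 7.14 at 5 µM, and 5.67, 5.19 and 5.35 at 10 µM. Its doses did not overlap, and 2 of the 10 µM arrays were under the floor, with a rise of 0.58 ± 0.18 at 5 µM against 0 µM (adjusted p = 0.0379) and falls of 1.46 ± 0.18 against 5 µM (2.76-fold, adjusted p = 0.00347) and 0.88 ± 0.18 against 0 µM (adjusted p = 0.0082). MKI67, the proliferation antigen Ki-67, had 7.49, 7.11 and 6.56 at 0 µM, 7.23, 7.4 and 7.28 at 5 µM, and 6.78, 6.75 and 7.16 at 10 µM, and passed in no comparison with its brightest probe set (-0.40 ± 0.22 at 10 µM against 5 µM, adjusted p = 0.239). Of its 3 other probe sets, 2 fell in that comparison (-0.97 ± 0.22 and -0.93 ± 0.16, adjusted p = 0.0281 and 0.0121 over probe sets).

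The 9 tested genes not yet described by their values, or by their promoter alone, were CKS2, TTK, CENPE, KIF14, KIF20B, ECT2, CKAP2, UBE2S and CDCA3, most of them outside the rule for naming. At 10 µM against 5 µM their changes lay between -1.23 ± 0.31 (KIF14, a midbody kinesin) and -0.11 ± 0.20 (CDCA3), and CKS2, KIF14, CKAP2 and UBE2S fell. CKS2, a small subunit of CDK1 complexes, had also risen by 0.59 ± 0.14 at 5 µM against 0 µM (adjusted p = 0.011), as had KIF20B (0.61 ± 0.18, adjusted p = 0.0322). CENPE, the kinetochore motor, and UBE2S, which extends ubiquitin chains for the anaphase-promoting complex, fell at 10 µM against 0 µM (-1.27 ± 0.35 and -0.77 ± 0.17, adjusted p = 0.0239 and 0.0101).

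**Figure D4:**
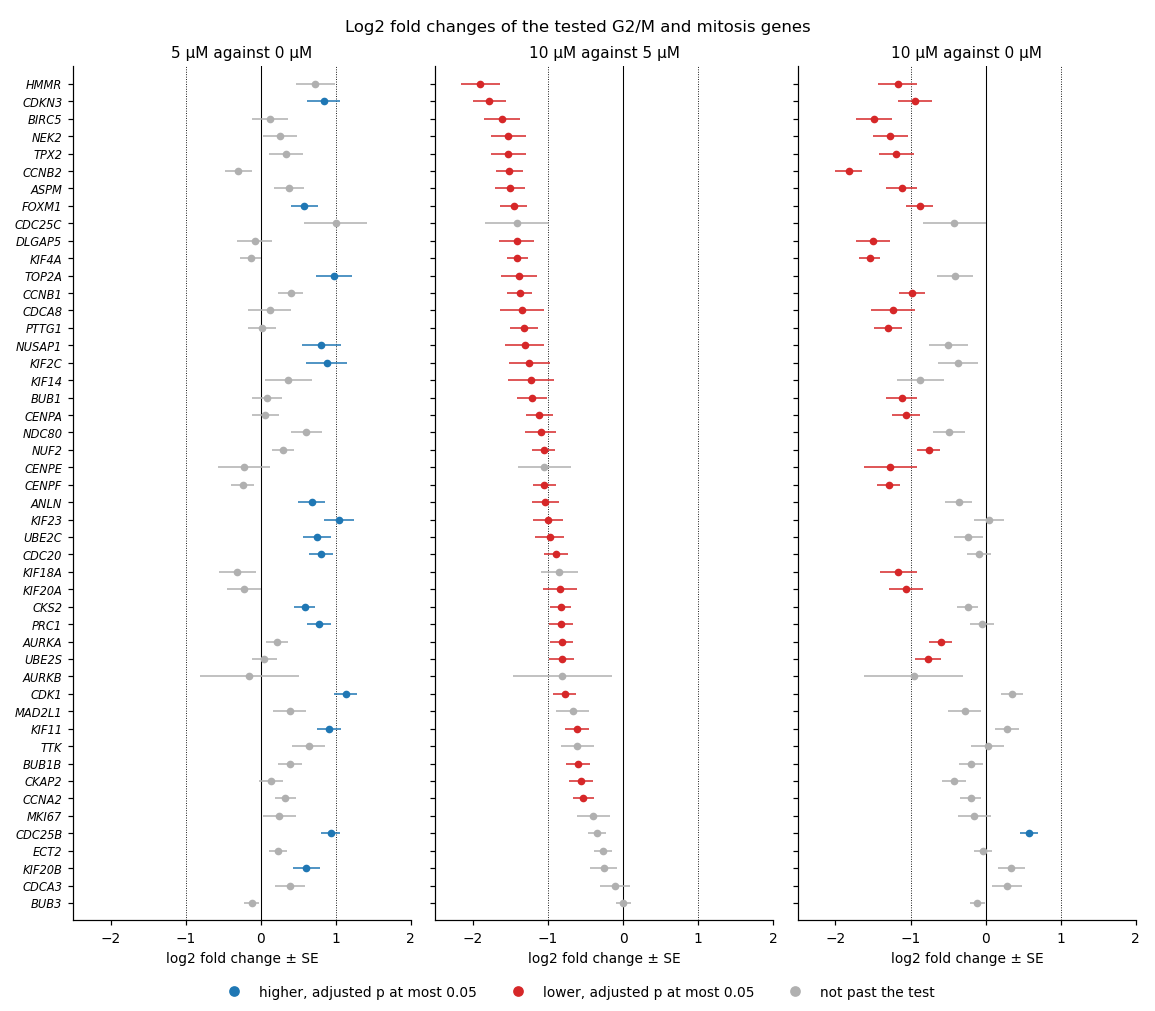
Log2 fold change with its standard error (x axis) of the 48 tested G2/M and mitosis genes (rows, ordered by the change at 10 µM against 5 µM) in the 3 comparisons. Blue points are higher and red points lower at an adjusted p of at most 0.05: 15 are blue in the first panel, 36 red in the second, and 22 red and 1 blue in the third.

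Other probe sets of the same genes mostly had the same sign, but not all passed. Of 103 probe sets of the 52 genes, 72 reached the floor, and 19 genes had more than 1 of these. In each comparison 18 of the 19 had 1 sign on all of them, the exceptions being CCNB1 at 5 µM against 0 µM, BUB3 at 10 µM against 5 µM and ASPM at 10 µM against 0 µM. Among the 24 probe sets not used to represent a gene, 12 fell at 10 µM against 5 µM (median -0.98), and none was called against the sign of its gene. The share of all probe sets that fell is not given. The other tested probe sets of BIRC5 and KIF2C were not among the 12 (-0.65 ± 0.30 and -1.0 ± 0.29, limma adjusted p = 0.191 and 0.0614 over probe sets). Nor were those of CDK1 (-1.03 ± 0.34 and -0.92 ± 0.29, adjusted p = 0.0864 and 0.0766), KIF23 (-0.59 ± 0.29, adjusted p = 0.211) and ASPM (-0.85 ± 0.33, adjusted p = 0.125). The falls of these 5 genes were thus called on 1 probe set each. That of BIRC5 did not pass against 0 µM either (-0.54 ± 0.30, adjusted p = 0.206), nor did that of KIF2C at 5 µM against 0 µM (0.28 ± 0.29, adjusted p = 0.529). Probe sets annotated to CENPA or CKAP2 together with another gene were left out.

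The vehicle cultures differed among themselves in these genes more than in others. The median SD of the 48 genes was 0.34 at 0 µM, 0.11 at 5 µM and 0.24 at 10 µM, while that of all tested genes was 0.14, 0.12 and 0.21. Replicate 1 was the highest of the vehicle arrays for 43 of the 48 genes and replicate 3 the lowest for 40, and the actin 3' minus 5' value was 1.91, 2.06 and 2.29 on vehicle replicates 1, 2 and 3. The mean log2 signal of the 48 genes was 8.16, 7.88 and 7.56 on the vehicle arrays, 8.21, 8.22 and 8.32 at 5 µM, and 7.17, 7.33 and 7.23 at 10 µM. Without vehicle replicate 3, 0 genes rose over 2-fold at 5 µM against 0 µM, and without replicate 1, 6 did, while those that fell over 2-fold at 10 µM against 0 µM numbered 10. The fall at 10 µM against 5 µM does not involve the vehicle means, and called 20 to 37 genes when each of the 9 arrays was left out in turn (20 without 5 µM replicate 3, where 8 rose at 5 µM against 0 µM). In all 9 of these fits 19 of the 36 genes that fell at 10 µM against 5 µM stayed called, as did 19 of the 22 that fell at 10 µM against 0 µM, but 7 of the 15 that rose at 5 µM against 0 µM (CDK1, CDC25B, CKS2, KIF11, KIF23, PRC1 and CDC20). The 19 of the first comparison included CCNB1, CCNB2, BIRC5, KIF4A, HMMR, TOP2A and FOXM1. The 18S rRNA 5' control was 13.45 and 13.60 on 10 µM replicates 2 and 3, against 11.77 on replicate 1. With both left out, 16 genes fell at 10 µM against 5 µM, 15 of them among the 36, and the other was AURKB, whose remaining 10 µM signal is the 2.54 given above. The count was 14 at 10 µM against 0 µM, of which 13 were among the 22.

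**Figure D5:**
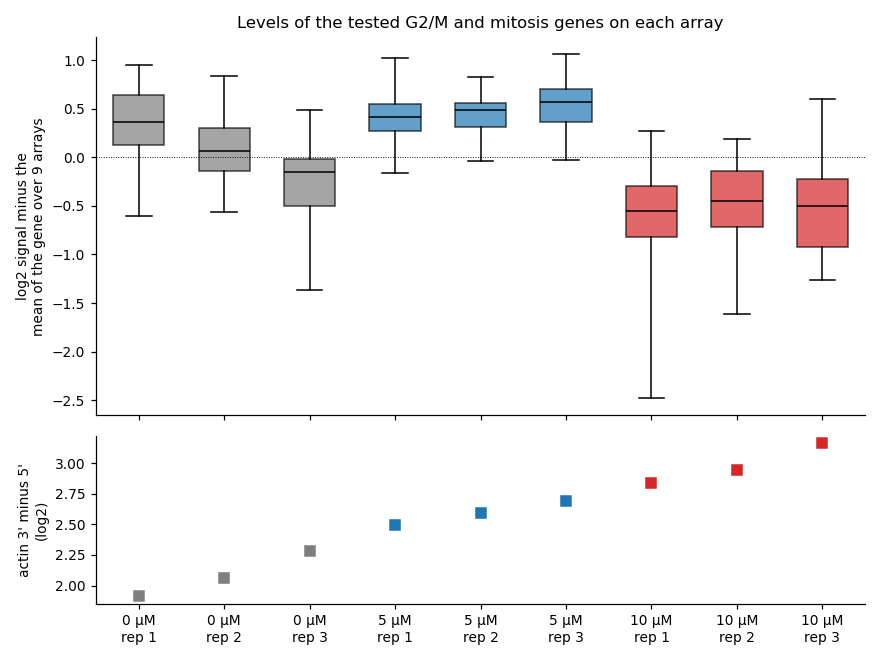
Upper panel: log2 signal of the 48 tested G2/M and mitosis genes minus each gene's mean over the 9 arrays (y axis), by array (x axis), with boxes for the quartiles, a line for the median and whiskers for the lowest and highest gene. Lower panel: actin 3' minus 5' signal (log2) of the same arrays. The vehicle arrays differ most in the upper panel, and the actin value is 1.91 to 2.29 at 0 µM, 2.49 to 2.69 at 5 µM and 2.84 to 3.16 at 10 µM.

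Of 106 other genes of the G2/M pathway, 94 were tested. At 5 µM against 0 µM 40 rose and 4 fell (42.6% and 4.26%, against 20.2% and 13.3% of all tested genes; median 0.39). Between the treated doses, 20 fell and 6 rose at 10 µM against 5 µM (21.3% and 6.38%, against 8.93% and 6.94%; median -0.14). Against the vehicle, 24 rose and 7 fell at 10 µM (25.5% and 7.45%, against 19.8% and 13.3%; median 0.14). The 40 that rose include MYBL2, RBL1, CENPM and CDCA2, and the 24 include MYBL2, RBL1 and CENPM. All of these lay below the floor on every vehicle array, so the filter let them in only where they were higher. CDCA2 is also among the 20 that fell, and lay below the floor on every 10 µM array. No difference between these lists and the 48 genes was tested. In a list of 12 genes that regulate CDK1 or the G2 checkpoint, which also holds the activator CDC25A and PPM1D, a phosphatase that ends the checkpoint, 11 rose at 5 µM against 0 µM (91.7%, against 20.2%) and 6 fell at 10 µM against 5 µM (against 8.93% of all tested genes). CDC25A is among the 11, and its vehicle mean of 4.38 ± 0.97 lay below the lowest array median of 5.07. It thus did not reach the floor on every vehicle array and entered the test only through treated doses, which favours a rise. CDKN1A, the CDK inhibitor p21, rose by 1.54 ± 0.16 at 5 µM against 0 µM (adjusted p = 0.000221) and fell by 1.16 ± 0.16 at 10 µM against 5 µM (adjusted p = 0.00478). SFN (14-3-3 sigma) rose by 0.99 ± 0.13 (adjusted p = 0.00077) and fell by 0.52 ± 0.13 (adjusted p = 0.0316) in the same comparisons. WEE1, the kinase that holds CDK1 inactive, rose by 0.41 ± 0.11 at 5 µM (adjusted p = 0.0182) and by 0.60 ± 0.11 at 10 µM (adjusted p = 0.00402) against 0 µM. These 3 were chosen after their values were seen.

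Among the other pathway genes detected in the vehicle, MAD1L1, the partner of MAD2 in the checkpoint, had the largest rise at 5 µM against 0 µM (2.08 ± 0.16, adjusted p = 4.1e-05) and fell at 10 µM against 5 µM (-1.31 ± 0.16, adjusted p = 0.00311). It was named after its values were seen. MYBL2 (B-MYB) and RBL1 (p107), partners of the MuvB complex, and the centromere gene CENPM did not reach the floor on any vehicle array and entered the test only through treated doses, so they had to be higher there, and no test is given against the vehicle. With every value below the floor raised to it, MYBL2 was at least 2.17-fold higher at 5 µM (means 6.26 at 5 µM and 3.27 at 0 µM) and CENPM at least 2.81-fold (means 6.64 at 5 µM and 4.28 at 0 µM). RBL1 was at least 3.39-fold higher at 10 µM (means 6.91 at 10 µM and 4.33 at 0 µM), and it rose at 10 µM against 5 µM (0.75 ± 0.21, adjusted p = 0.0422). The largest falls at 10 µM against 5 µM were those of FAM83D, a spindle protein (-1.57 ± 0.22, adjusted p = 0.00508), and DEPDC1 (-1.56 ± 0.23, adjusted p = 0.0053), and CENPC, a centromere protein, rose by 0.53 ± 0.10 (adjusted p = 0.0127). DEPDC1 and CEP55, a protein of the final abscission, also fell against 0 µM (-1.48 ± 0.23 and -0.91 ± 0.28). PMF1 and STAG2, a kinetochore and a cohesin subunit, fell most at 5 µM against 0 µM (-0.55 ± 0.15 and -0.53 ± 0.13).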

How the data were processed

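Biotin-labelled total RNA of each of 9 HT-29 cultures, 3 per dose, was measured on its own Affymetrix U133 Plus 2.0 array. The authors deposited log2 signals for 54675 probe sets. The submitters' notes name RMA and affy 1.14.2, but the linear values have the same 2% trimmed mean (250.1) on every array and differ by up to 1.58 (log2) between arrays when sorted, so each array was scaled by a single factor and none was quantile normalized, the form of MAS 5.0 signals. Low signals are therefore noisy, and how many arrays were run limits the precision.

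Probe sets were named from the platform's gene table with the current symbols of RefSeq (GRCh38.p14), which gave 41089 probe sets a single gene, 1801 more than one and 11717 none, beside 62 controls. Another 6 with a missing value were left out. For each of 19752 genes the brightest probe set on average over the 9 arrays was used. Genes entered the test if they reached the array median (5.07 to 5.52, log2) on every array of at least 1 dose. Limma 3.58.1 (lmFit and eBayes, R 4.3.3) was fitted on all 9 arrays with 1 mean per dose, and p-values were two-sided and adjusted by Benjamini-Hochberg over the 11749 tested genes. The thresholds, an adjusted p of 0.05 and 2-fold, are those of the study's methods, which made the comparisons of neighbouring doses but not that of 10 µM with 0 µM. A gene below the floor on all arrays of a dose is given as at least so many fold.

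The genes, their roles, the 106 other pathway genes and the tests were chosen with earlier results of these data known. Values on every array are given for genes over 2-fold, for the 6 largest called rises and falls in each comparison and for 1 or more genes of each role, as far as space allowed. Motifs were counted in the first RefSeq promoter window listed for each gene. The code was tested on simulated data. Alternatives were other filters, probe set choices, scalings, tests, weights and covariates, and leaving out arrays. Summaries and figures were made in Python 3.11.15 with matplotlib 3.10.9.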

Additional observations from a re-analysis of the deposited data

How the results depend on the processing

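The counts below are of the 48 tested G2/M and mitosis genes. A count without a share beside it is not set against all tested genes. With equal array medians, which shift the median of all tested genes by -0.27 at 5 µM against 0 µM and by -0.28 at 10 µM against 0 µM, 5 genes were higher and 1 lower at 5 µM against 0 µM, 0 over 2-fold, 0 were higher at 10 µM against 0 µM, and their medians were 0.11 and -0.82; relative to all tested genes the medians were 0.33 and -0.59, as without the shift. Quantile normalization left 9 higher at 5 µM against 0 µM (18.8%, against 17.4% of all tested genes), 1 of them over 2-fold. With no filter 8 were higher at 5 µM against 0 µM and 21 lower at 10 µM against 5 µM. Probe sets without _x_at and _s_at gave 8 higher at 5 µM against 0 µM, 22 lower (15 over 2-fold) at 10 µM against 5 µM, and 11 lower (9 over 2-fold) and 0 higher at 10 µM against 0 µM, where ASPM turned to 0.09. The mean of probe sets gave 1 over 2-fold higher at 5 µM against 0 µM, and array weights gave 1 there and 2 higher at 10 µM against 0 µM. The methods' t-test gave 7 higher at 5 µM against 0 µM, 19 lower (14 over 2-fold) at 10 µM against 5 µM, and 5 lower (5 over 2-fold) and 0 higher at 10 µM against 0 µM. With 10 µM replicates 2 and 3 left out, 16 were lower (15 over 2-fold) at 10 µM against 5 µM and 14 at 10 µM against 0 µM, the lone array being assumed to vary like the other doses. With the actin 3' minus 5' covariate, 6 were higher at 5 µM against 0 µM (6 over 2-fold), 0 lower and 0 over 2-fold in both comparisons of 10 µM, 0 higher at 10 µM against 0 µM, and the medians were 0.69, -0.70 and 0.08, while ASPM, CDCA8, KIF18A and TPX2 turned to 0.36, 0.26, 0.55 and 0.04 at 10 µM against 0 µM. The causes of these shifts were not tested. Some of the alternatives hold fewer genes or arrays.

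Leaving out each array in turn gave 8 to 17 higher and 0 to 1 lower at 5 µM against 0 µM (0 to 6 higher and 0 lower over 2-fold, median 0.21 to 0.52), 20 to 37 lower and 0 higher at 10 µM against 5 µM (17 to 24 lower and 0 higher over 2-fold, median -1.05 to -0.97), and 20 to 27 lower and 1 to 2 higher at 10 µM against 0 µM (10 to 19 lower and 0 higher over 2-fold, median -0.81 to -0.44). The lowest count at 10 µM against 5 µM was without 5 µM replicate 3. The replicate block gave 12 higher at 5 µM against 0 µM, 36 lower (24 over 2-fold) at 10 µM against 5 µM and 23 lower at 10 µM against 0 µM. No shared effect of the replicate number was seen. The deviations of arrays with the same number correlated between -0.089 and 0.179 (9 pairs) and those of other arrays between -0.248 and 0.225 (18 pairs). These values cannot show whether the cultures were handled in pairs. AURKB, near the floor, had a standard error of 0.66, too wide to show a change of the size seen in most of the others.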
